A study of Mus musculus with 12 samples.

Results

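The miR-290 to miR-295 cluster of the mouse is a set of microRNAs (miRNAs) cut from one primary transcript that is best known from embryonic stem cells. It was followed here in BC3H1, a line from a mouse brain tumour that has properties of muscle, through every array probe whose mouse miRNA name has a stem from miR-290 to miR-295 and no star. Of 417 mouse miRNA probes, 5 met this rule: miR-291b-5p, miR-292-3p, miR-293, miR-294 and miR-295. The array held 0 probes named for star strands of these stems, 0 named for rat miR-290 to miR-295 and 0 named for the human counterparts miR-371 to miR-373.

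The arrays were Exiqon miRCURY LNA arrays with a pair of colours, on which each sample was labelled with the dye Hy3 and a common RNA pool with Hy5. The 3 groups had 4 arrays each. RS_DMSO is rapamycin-sensitive cells given the solvent DMSO for 24 h, RS_Rap is the same sensitive cells given 100 nM rapamycin for 24 h, and RR_Rap is the resistant line RR1, derived from BC3H1 in 1 µM rapamycin over 6 months and kept in that drug. Rapamycin blocks the kinase complex mTORC1. All groups grew in medium with fetal bovine serum. The labels name a single resistant line, and they do not state whether replicates were grown as separate cultures. The p-values then measure no more than the spread among these samples, which can be technical. One label describes the pool as an equal mixture of the conditions and another as RNA of 9 samples, although there are 12 arrays. Each group was scanned as one consecutive run of arrays, so scan order and group cannot be told apart. In bulk RNA, fewer cells that make a miRNA and less of it per cell cannot be told apart.

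A miRNA pairs with target messenger RNAs mainly through its seed, the bases after the first one at its 5′ end, and represses them. The cluster is transcribed strongly in embryonic stem cells and shut off as they differentiate. Several of its members share their seed with the miR-302 cluster, another set of stem-cell miRNAs, and a shifted form of that seed with the miR-17 family, which promotes growth in many cell types. Stem-cell members with this seed release the brake on the step from G1 to S phase by repressing cell-cycle inhibitors. In RefSeq on GRCm38.p6 the cluster holds 7 hairpins within 2216 bases of chromosome 7, chr7:3218626-3220841, on the plus strand, in the order Mir290a, Mir291a, Mir292, Mir291b, Mir293, Mir294 and Mir295. The 5 probes stand for 5 of these hairpins.

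The mature sequences below, from RefSeq on GRCm38.p6, show which members share a seed, printed in capitals. They include 4 of the 5 members. The array names miR-293, miR-294 and miR-295 carry no arm and were matched to the 3p arm, the one that older naming wrote without a suffix. miR-291a-5p, miR-302d-3p and miR-17-5p stand beside them as the close relative in the cluster, a relative in the miR-302 cluster and the name-giver of the miR-17 family.
mmu-miR-291b-5p: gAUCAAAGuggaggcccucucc
mmu-miR-291a-5p: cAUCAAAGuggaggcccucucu
mmu-miR-293-3p: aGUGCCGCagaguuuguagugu
mmu-miR-294-3p: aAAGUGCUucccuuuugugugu
mmu-miR-295-3p: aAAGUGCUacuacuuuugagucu
mmu-miR-302d-3p: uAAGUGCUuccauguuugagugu
mmu-miR-17-5p: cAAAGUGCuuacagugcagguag

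miR-294-3p (chr7:3220691-3220712) and miR-295-3p (chr7:3220815-3220837) carry the same seed, which 5 of 1679 mature mouse names in the table hold, or 0.298%. The other holders among these names are miR-291a-3p, miR-302b-3p and miR-302d-3p. The names are not complete, as miR-292-3p is missing from them, so further mouse miRNAs can carry this seed. Outside the seed the pair differ. Counted with the seed, 12 of the 22 aligned bases are identical between miR-294-3p and miR-295-3p, against 17 of 23 between miR-295-3p and miR-302d-3p. miR-293-3p (chr7:3220390-3220411) is the single holder of its seed among these names. miR-291b-5p (chr7:3219494-3219515) comes from the 5′ arm of its hairpin and has a seed unlike the stem-cell one. It shares that seed with miR-291a-5p (chr7:3218932-3218953), to which it is identical at 20 of 22 bases. Counted from 1 at the 5′ end, with the base of miR-291b-5p first, the differences are G1C and C22U. No probe was named for miR-291a-5p, and whether the miR-291b-5p probe also bound it was not tested. The hairpin of Mir291b (chr7:3219482-3219560) is shown because its 5p arm had the largest differences among the members, and that arm is in capitals.
Mir291b hairpin: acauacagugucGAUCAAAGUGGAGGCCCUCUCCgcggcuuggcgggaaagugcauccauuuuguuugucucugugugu

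The first question was whether the cluster was detected at all. Signals are pixel means of a spot, taken as the median of the 4 spots of a probe, and were set against the 7 negative-control probes of each array. To count as above them, a probe needed a Hy3 signal over that of the highest control on 3 or more of the 4 arrays in any group. By this rule 2 of the 5 members, miR-294 and miR-291b-5p, lay above the negative controls, against 218 of all 417 mouse probes, or 52.3%. The highest negative control stood at 125 to 303 in Hy3 over the 12 arrays, with a median of 132. The scanner software's own flag for signal above local background was set for every spot on 11 of the 12 arrays and so separated nothing. The label of an embryonic stem-cell cluster therefore describes where these miRNAs are known from, and not a high level in these cells.

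miR-292-3p, a 3′ arm of the cluster, had Hy3 signals from 112 to 125 over the 12 arrays. miR-293 ranged from 103 to 112 and miR-295 from 102 to 113. All 3 lay under the highest negative control on each of the 12 arrays, and their Hy5 signals, from 65.2 to 79.5, did so too. At this signal a change of these members could not be detected, which does not show that they are absent.

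miR-294, one of the most abundant miRNAs of embryonic stem cells, was above the highest negative control on 12 of 12 arrays, by little. Its Hy3 signal was 201, 169, 380 and 150 on RS_DMSO arrays 1 to 4. It was 142, 151, 153 and 175 in RS_Rap and 164, 147, 153 and 181 in RR_Rap. The 3 groups overlapped, and RS_DMSO 3 was the high array. On that array the highest negative control was also at its maximum, 303. miR-294 stood at 1.11 to 1.37 times the highest negative control of the same array, and taking the mean in place of the median over spots left it above on 10 arrays. With the stricter line of 3 SD above the mean of the negative controls it was above on 8 of 12 arrays, and 147 of the 417 mouse probes passed in place of 218.

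The miR-294 signal moved with the negative controls. Over the 12 arrays its Hy3 signal and that of the highest negative control had a Pearson r of 0.987 (permutation p = 0.00102, adjusted over 5 members 0.00510) and a Spearman rho of 0.657 (adjusted p = 0.0394). Without RS_DMSO 3 and RS_DMSO 1, the arrays farthest from the median negative control, r was 0.432, so the high r rests on them. miR-292-3p and miR-295, at the level of the controls, had rho of 0.797 and 0.664 (permutation adjusted p = 0.0153 and 0.0394), with r of 0.391 and 0.475. miR-293 had r of 0.397 and rho of 0.469 (adjusted p = 0.173 and 0.128). miR-291b-5p did not follow the controls this way, with r of -0.0996 and rho of -0.503 (adjusted p = 0.712 and 0.124). Its r was -0.68 without those arrays. These relations were not computed within the groups, which hold 4 arrays each.

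miR-291b-5p was above the highest negative control only in sensitive cells after 24 h of rapamycin, on 3 of 4 arrays, and below the lowest one in the resistant line, on 4 of 4. Its Hy3 signal was 132, 113, 118 and 119 on RS_DMSO arrays 1 to 4, all within the range of the controls. In RS_Rap it was 174, 174, 125 and 173, with RS_Rap 3 the low array. In RR_Rap it was 87.8, 87.7, 92.99 and 90.5, where the lowest negative controls stood at 92.7 to 97.0. The resistant arrays lay below all others, and the single RS_Rap array near the DMSO range was RS_Rap 3. The line itself was lowest in RS_Rap, where the highest negative controls stood at 125 to 128, against 132 to 303 in RS_DMSO and 131 to 138 in RR_Rap. The miR-291b-5p signal of 132 on RS_DMSO 1 lay above the RS_Rap lines. On RR_Rap 2 the 4 spots ran from 86.2 to 233, so 1 of them was far above the median given. Of the 417 mouse probes, 13 (3.12%) lay below the lowest negative control on all 4 resistant arrays, as miR-291b-5p did, and 2 of these 13 had a pool signal above the highest Hy5 negative control on all 4.

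**Figure D1:**
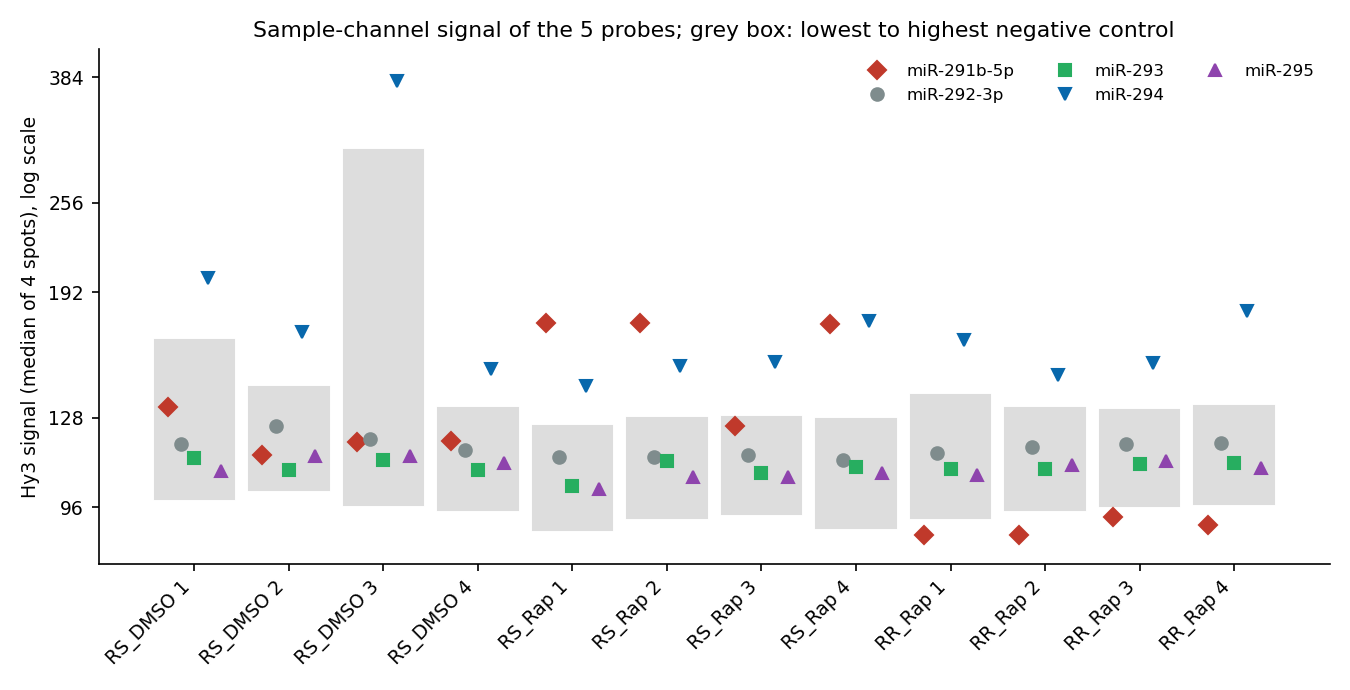
Hy3 signal of the 5 probes (y axis, log scale, median of 4 spots) on each of the 12 arrays (x axis), over grey boxes that run from the lowest to the highest of the 7 negative controls. miR-294 sits above the box on all 12 arrays, miR-291b-5p above it on 3 RS_Rap arrays and below it on the 4 RR_Rap arrays, and the other 3 probes inside it throughout.

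The Hy5 channel holds the same pool on every array and shows how stable the denominator of the ratio was. For miR-291b-5p the pool signal was 136, 120, 119 and 112 on the RS_DMSO arrays. It was 97.9, 93.001, 104 and 105 on the RS_Rap arrays and 116, 105, 124 and 114 on the RR_Rap arrays. The pool signal was thus lower on the RS_Rap than on the RS_DMSO arrays without overlap, although the RNA was the same. The median Hy5 signal of all spots was lower there too, at 70.7 to 74.4 on RS_Rap arrays, 74.6 to 100 on RS_DMSO arrays and 73.3 to 78.1 on RR_Rap arrays. The pool signal lay above the highest Hy5 negative control on 11 of 12 arrays, RS_DMSO 3 being the exception.

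To separate both channels, each signal was divided by the median negative control of its own array and channel, a measure chosen after the data were seen. In Hy3, miR-291b-5p stood at 1.02 ± 0.08 times that median in RS_DMSO, 1.48 ± 0.25 in RS_Rap and 0.768 ± 0.019 in RR_Rap (SD, n = 4). The difference between RS_Rap and RS_DMSO had an exact two-sided permutation p of 0.0571, and both differences from RR_Rap had 0.0286, the smallest p that 4 against 4 arrays allow. Over the 12 such tests made on miR-291b-5p and miR-294, the exact permutation tests of all 3 gave an adjusted p of 0.137. None passed the correction, but a pass would have needed the smallest possible p in most of the 12 tests. The correction could therefore hardly be met with 4 arrays a group, and missing it decides nothing about these differences. In Hy5 the ratio was 1.64 ± 0.15 in RS_DMSO, 1.46 ± 0.07 in RS_Rap and 1.62 ± 0.09 in RR_Rap (exact permutation p = 0.0571, 0.857 and 0.0571 for RS_Rap against RS_DMSO, RR_Rap against RS_DMSO and RR_Rap against RS_Rap). For miR-294 the exact permutation p ran from 0.286 to 0.6.

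**Figure D2:**
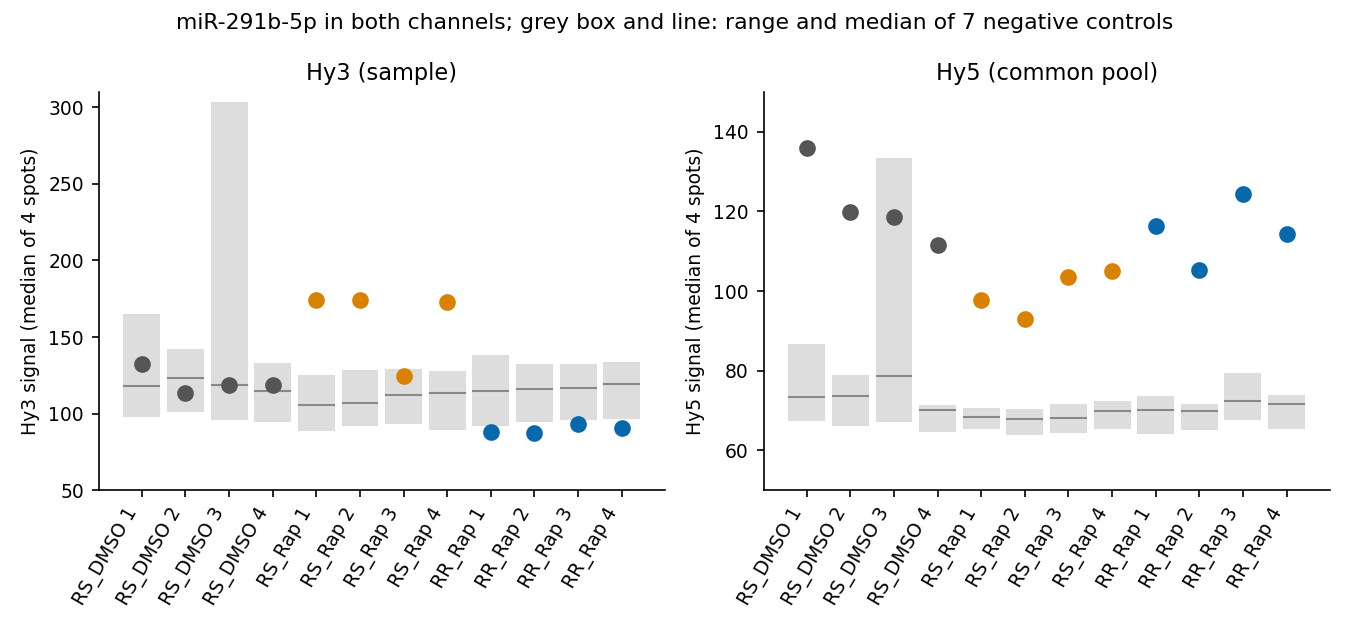
Signal of miR-291b-5p (y axes, median of 4 spots, separate scales) on each of the 12 arrays in the sample channel Hy3 (left) and the pool channel Hy5 (right). Grey boxes and lines give the range and median of the 7 negative controls. In Hy3 the RR_Rap points lie under the boxes at 87.7 to 92.99, and in Hy5 the RS_Rap points, at 93.001 to 105, lie below the RS_DMSO points at 112 to 136.

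All changes below are differences of log2 ratios of Hy3 over Hy5, after background correction and a loess fit within each array, tested with limma over all 417 mouse probes. Ratios of the 3 members at the level of the negative controls compare background with background. For miR-291b-5p the ratio in RR_Rap rests on a sample signal under the lowest negative control, and that in RS_DMSO on one within the range of the controls. It passed the rule on signal through RS_Rap alone. Its fold changes in all 3 comparisons are therefore those of the measured signal and not a calibrated amount of the miRNA. Of the arrays, RS_DMSO 3 stood apart, with correlations across probes of 0.575 to 0.709 with the other DMSO arrays against 0.828 to 0.874 among those. The number of mouse probes over the highest negative control was 134 to 228 per array. Of the marker lists, 2 of 7 muscle miRNAs (miR-1 and miR-206) and 2 of 2 smooth-muscle miRNAs lay above the negative controls. The counts were 1 of 4 for neuronal, 0 of 6 for epithelial and 2 of 5 for blood-cell miRNAs. The neuronal list was also meant to hold miR-128a and miR-128b, but their shared probe was missed by its name. That probe lay above the negative controls by the same rule, on 9 of 12 arrays, and is in none of the marker counts.

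Some of the counted markers differed in the resistant line, against RS_DMSO and against RS_Rap. After 24 h of rapamycin 0 of the 24 did, where 3.36% of all mouse probes were called. miR-291b-5p was called after 24 h and in the resistant line against RS_Rap, but not against RS_DMSO. The smooth-muscle miRNAs miR-143 and miR-145 fell, with log2 changes of -2.02 and -0.20 against RS_DMSO and of -2.29 and -0.29 against RS_Rap. The muscle miRNAs miR-1 and miR-206 fell against RS_Rap, with -0.68 and -0.61, and miR-208, not above the negative controls, rose with 0.41. The neuronal miR-137 fell against RS_DMSO with -0.29, and miR-124 fell with -0.12 in both comparisons, neither above the negative controls. The uncounted probe for miR-128a and miR-128b, which was above them, was higher in RR_Rap than in RS_Rap without overlap. Between RR_Rap and RS_DMSO its arrays overlapped, and no limma result is given for it. Its log2 ratio was 0.32 ± 0.06 in RR_Rap, 0.07 ± 0.07 in RS_Rap and 0.23 ± 0.06 in RS_DMSO (SD, n = 4). The blood-cell miR-142-3p rose against RS_Rap with 0.20, and 0 of 6 epithelial markers were called. In all, 0 of 24 rose and 4 fell against RS_DMSO, where 12.9% of all mouse probes rose and 10.3% fell. Against RS_Rap 2 of 24 rose and 5 fell, where 15.1% of all mouse probes rose and 13.9% fell. The limma adjusted p of these calls ran from 1.21e-07 to 0.0470, and their part in the values of the cluster was not tested.

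miR-291b-5p, the 5′ arm with the seed unlike the stem-cell one, had log2 ratios of -0.62, -0.55, -0.86 and -0.38 in RS_DMSO. They were 0.21, 0.28, -0.40 and 0.06 in RS_Rap and -0.98, -0.88, -1.01 and -1.07 in RR_Rap. The resistant arrays lay below all 8 others. RS_Rap 3 lay inside the DMSO range and the other RS_Rap arrays above it. The means were -0.60 ± 0.20, 0.04 ± 0.31 and -0.99 ± 0.08 (SD, n = 4), so the order of the groups was RR_Rap, RS_DMSO, RS_Rap from low to high.

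miR-294, with the stem-cell seed, had log2 ratios of 0.52, 0.34, 0.45 and 0.39 in RS_DMSO. They were 0.36, 0.35, 0.36 and 0.36 in RS_Rap and 0.57, 0.40, 0.50 and 0.54 in RR_Rap. RR_Rap lay above RS_Rap without overlap and overlapped with RS_DMSO, as RS_Rap did with RS_DMSO. The means were 0.42 ± 0.08, 0.36 ± 0.0053 and 0.50 ± 0.08 (SD, n = 4), so RS_Rap was lowest and RR_Rap highest, and neither differed from its neighbour RS_DMSO beyond the spread. The 4 RS_Rap arrays were far closer to each other than the arrays of the other groups.

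The other members, with signals at the level of the negative controls, had groups that overlapped in all 3 comparisons. miR-292-3p ranged from 0.25 to 0.39 in RS_DMSO, from 0.11 to 0.26 in RS_Rap and from 0.20 to 0.28 in RR_Rap. miR-293 ranged from -0.07 to 0.15 over the 12 arrays and miR-295 from 0.0032 to 0.32. One spot of miR-292-3p, on RS_Rap 4, was flagged by the scanner software and left out, 1 of the 240 spots of the members.

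**Figure D3:**
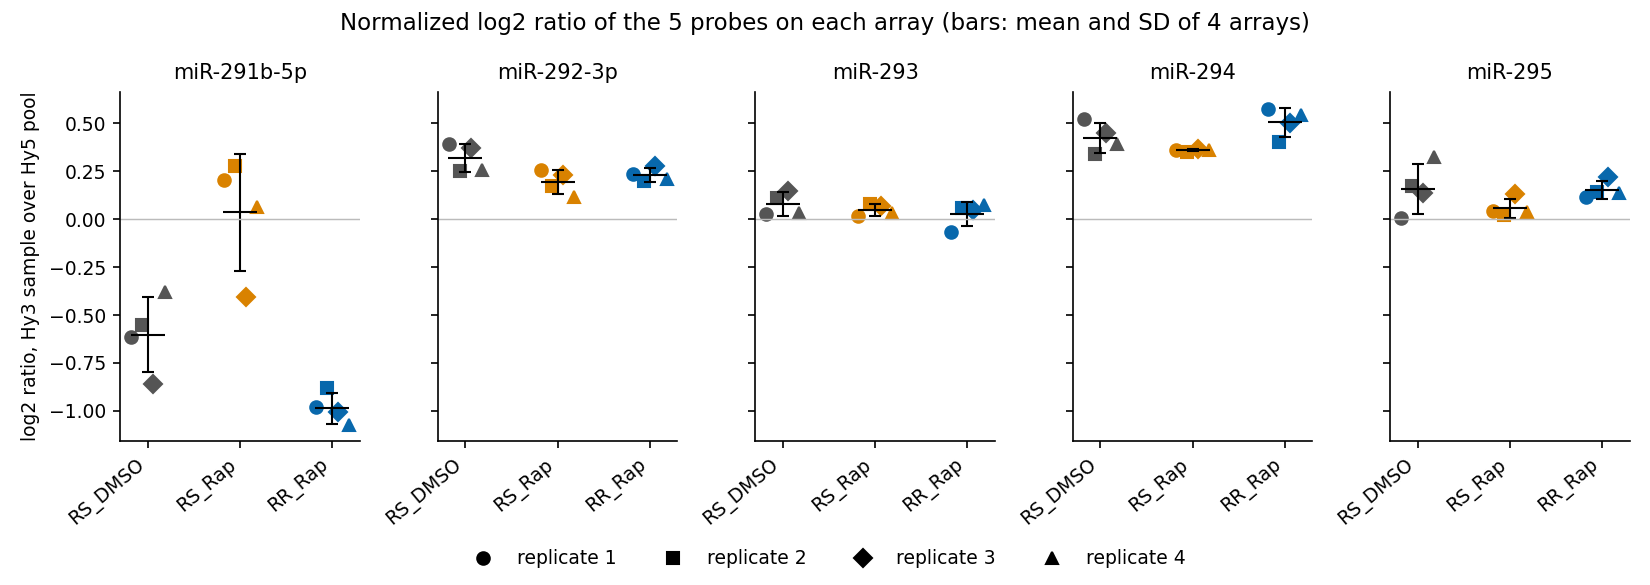
Normalized log2 ratio of sample over pool (y axis) for the 5 probes in the 3 groups (x axis), 1 point per array with the symbol of its replicate number, and the mean and SD of 4 arrays as bars. miR-291b-5p spans -1.07 to 0.28 and separates RR_Rap from the other groups, while the other 4 probes lie between -0.07 and 0.57.

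The comparison of RS_Rap with RS_DMSO addresses the short response of sensitive cells to the drug. miR-291b-5p rose by 0.64 ± 0.14 on the log2 scale (SE, 95% interval 0.34 to 0.94), or 1.55-fold, with a limma adjusted p of 0.0276. Its 4 and 4 arrays overlapped, as did those of the other 4 members, while the groups were apart without overlap for 14.9% of the 417 probes. The call was lost with the sample channel alone, at 0.58 (adjusted p = 0.114), and in a fit of the 8 arrays of this comparison, at 0.64 (adjusted p = 0.118), while the change stayed about as large. It was also lost without RS_DMSO 1, RS_DMSO 2, RS_Rap 1, RS_Rap 2 or RS_Rap 4, with limma adjusted p from 0.0517 to 0.0905 and log2 changes from 0.56 to 0.65. Without RS_Rap 3 the change was 0.78 (adjusted p = 0.00171). The size depended on the correction of dim signals, with 0.92 at an offset of 10 and 1.44 with the processed signals (adjusted p = 0.0249 and 0.0353). The part of the lower pool signal on the RS_Rap arrays in this change was not tested.

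Of the 5 members 1 was thus called after 24 h, where 3.36% of all mouse probes were called and 1.68% of all were called higher. miR-292-3p differed by -0.12 ± 0.05 (95% interval -0.22 to -0.02), which did not pass over all probes (limma adjusted p = 0.141). miR-294 differed by -0.07 ± 0.05, with an interval of -0.17 to 0.04 and an adjusted p of 0.402. miR-295 stood at -0.10 ± 0.06 and miR-293 at -0.03 ± 0.04 (limma adjusted p = 0.317 and 0.670). The median change was -0.07 over the members and -0.02 over all probes. The direction of miR-292-3p, miR-293, miR-294 and miR-295 turned under other settings, given in the closing section, and is not read here.

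Setting RR_Rap against RS_DMSO asks how the resistant line under drug differs from sensitive cells without it. Of the 5 members 0 passed in limma, where 23.3% of all probes did (12.9% higher and 10.3% lower), and 1 had an unadjusted p under 0.05. That member was miR-291b-5p, with a difference of -0.38 ± 0.14 (SE, 95% interval -0.68 to -0.09), or 1.31-fold lower, and a limma adjusted p of 0.0664. Its arrays did not overlap, which held for 25.4% of all probes. The call was made without RS_DMSO 3, with -0.47 and an adjusted p of 0.0238, and without RS_Rap 3, with -0.38 and 0.0109. An offset of 10 gave -0.72 (adjusted p = 0.0160) and the software's processed signals -1.96 (adjusted p = 0.000885). The difference was smaller without normalization, at -0.24, with spike-in centring, at -0.25, and in the sample channel alone, at -0.29 (adjusted p = 0.123, 0.150 and 0.206). Its size thus depended on the correction of dim signals and on the scaling.

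The remaining members differed little between RR_Rap and RS_DMSO. miR-292-3p stood at -0.09 ± 0.05, miR-294 at 0.08 ± 0.05, miR-293 at -0.05 ± 0.04 and miR-295 at -0.0062 ± 0.06, with limma adjusted p from 0.219 to 0.949. The intervals of these 4 reached from -0.19 to 0.18 at most. The median change was -0.05 over the members and -0.0076 over all probes.

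Setting RR_Rap against RS_Rap compares the resistant line with sensitive cells when both have rapamycin in the medium, at 1 µM and 100 nM. The comparison shares its arrays with both others, so its values are no further evidence for them. miR-291b-5p fell, with a log2 change of -1.02 ± 0.14 (SE, 95% interval -1.32 to -0.72) or 2.03-fold, a limma adjusted p of 0.000113 and arrays that did not overlap. The call was kept under all 26 other settings, with values from -3.41 with the processed signals to -0.87 with the sample channel alone, and from -1.17 to -0.94 with any 1 array left out. Among these settings, the negative-control filter is no support, because miR-291b-5p passed it through RS_Rap alone, the group where it was high.

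miR-294 rose by 0.15 ± 0.05 in the same comparison (95% interval 0.04 to 0.25), or 1.11-fold, with a limma adjusted p of 0.0374 and arrays that did not overlap. The call depended on the scaling and on the background correction. Without loess the change was 0.03 (adjusted p = 0.781), with the sample channel alone 0.04 (adjusted p = 0.938) and in the deposited value table -0.00033 (adjusted p = 0.997). It was also lost without any of RS_Rap 1, RS_Rap 2, RS_Rap 3, RS_Rap 4, RR_Rap 1, RR_Rap 3 or RR_Rap 4, at 0.12 to 0.15 with adjusted p from 0.0699 to 0.114.

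Of the 5 members 2 were called in this comparison, 1 higher and 1 lower, where 29% of all mouse probes were called, 15.1% higher and 13.9% lower. Arrays that did not overlap were found for 2 of 5 members and for 39.8% of all probes. Read against these shares, 2 of 5 is not a result about the members. miR-295 stood at 0.09 ± 0.06, miR-292-3p at 0.04 ± 0.05 and miR-293 at -0.02 ± 0.04, with limma adjusted p of 0.283, 0.638 and 0.796. The median change was 0.04 over the members and 0.03 over all probes.

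**Figure D4:**
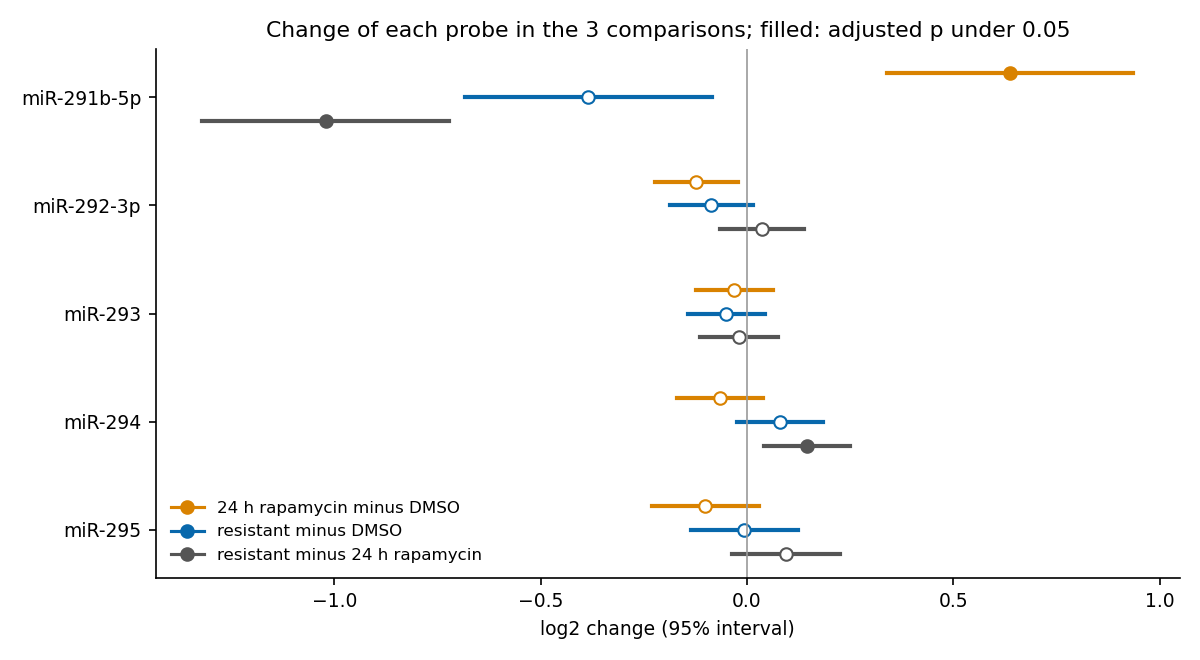
Log2 change of each probe (x axis, points, with its 95% interval as a line) in the 3 comparisons, with filled points where the limma adjusted p passed 0.05. miR-291b-5p lies at 0.64, -0.38 and -1.02, and the 4 other probes lie between -0.12 and 0.15.

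**Figure D5:**
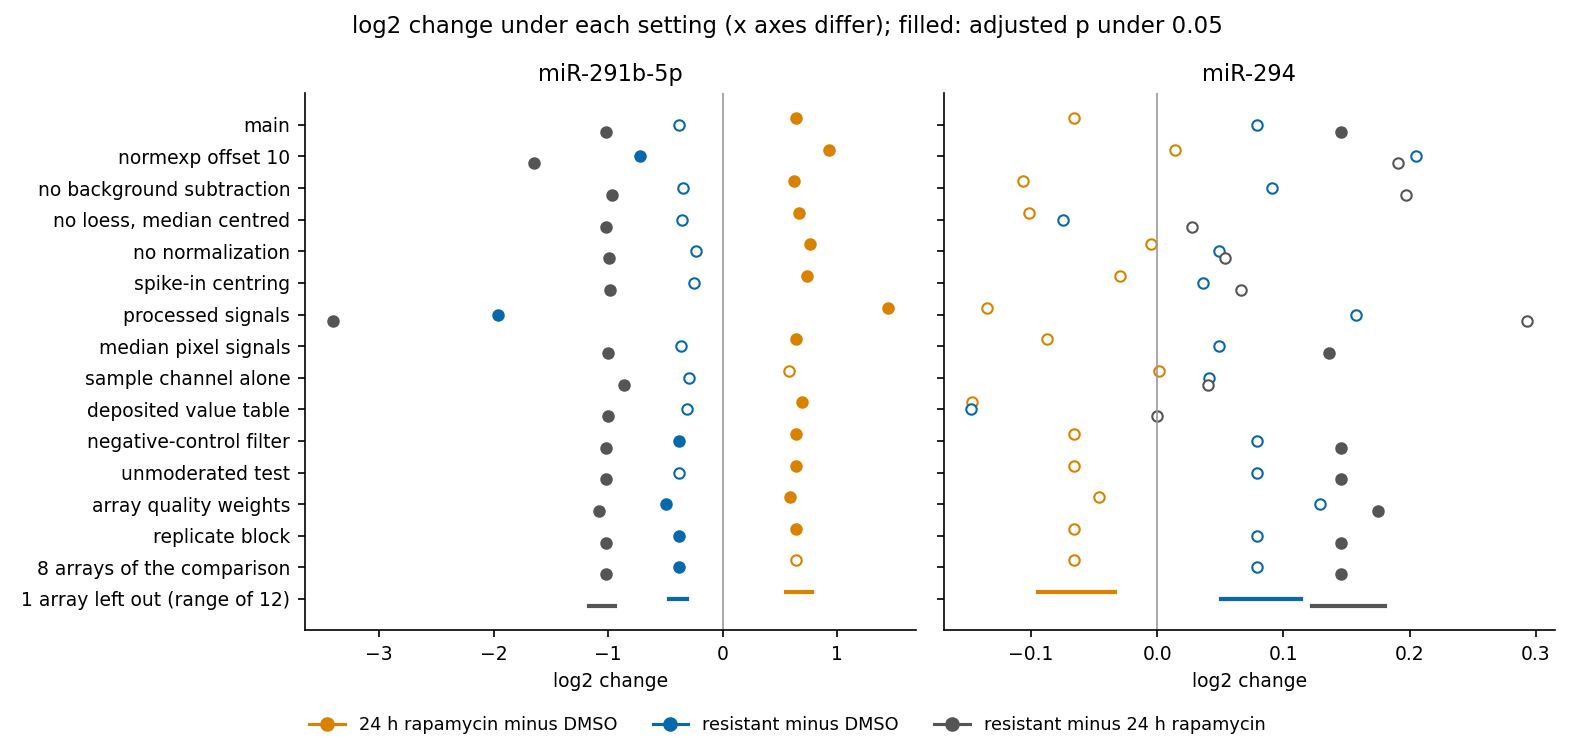
Log2 change (x axes, on different scales) of miR-291b-5p (left) and miR-294 (right) under the setting used in the text and each other setting (y axis), with filled points past the threshold and lines for the range with 1 of 12 arrays left out. For miR-291b-5p the values against RS_Rap stay between -3.41 and -0.87, while those of miR-294 run from -0.00033 to 0.29.

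The miR-302 cluster, the other stem-cell set and the one that shares a seed with miR-294 and miR-295, had 5 probes, of which 3 lay above the negative controls: miR-302a, miR-302c and miR-302d. After 24 h of rapamycin 0 of 5 were called (3.36% of all mouse probes), with a median change of -0.09. The values were -0.16 for miR-302c, -0.09 for miR-302a and for miR-302d, -0.08 for miR-302b and 0.02 for its star strand. In the resistant line 1 of 5 fell against DMSO (10.3% of all probes fell), miR-302c by 0.16 (limma adjusted p = 0.0484), with the star strand of miR-302b at -0.02. Against RS_Rap 1 of 5 rose (15.1% of all probes rose), miR-302d by 0.11 (adjusted p = 0.0335), with miR-302b at 0.07. These counts lie near the shares over all probes. The probe for miR-367, from the same cluster, was not above the negative controls by the rule used.

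The miR-17 seed family, which carries the stem-cell seed shifted by 1 base and promotes growth, had 6 probes, all above the negative controls. After 24 h 1 of 6 was called (3.36% of all mouse probes), miR-17, with a log2 change of -0.20 (limma adjusted p = 0.0320), while miR-106b stood at 0.27 (adjusted p = 0.109). In the resistant line 6 of 6 rose against DMSO, where 12.9% of all probes rose, with a median of 1.47, among them miR-17 by 1.64 and miR-20a by 1.50. Against RS_Rap 6 of 6 rose as well, where 15.1% of all probes rose, with a median of 1.21, miR-17 by 1.85 and miR-20a by 1.60. The Hy3 signal of miR-17 ranged from 495 to 2826 over the 12 arrays. The members of the miR-290 to miR-295 cluster with the related seed, miR-294 and miR-295, differed by 0.15 or less in size in each comparison. Their signals were far dimmer, with miR-294 little above the negative controls and miR-295 at their level, where a change could not be detected. These values therefore do not show that the 2 stayed level while the miR-17 family rose.

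The probes whose log2 ratio followed that of miR-291b-5p most closely over the 12 arrays, among 216 other probes above the negative controls, were miR-675-5p, miR-146a and miR-129-5p. miR-675-5p is made from the imprinted H19 RNA, and its r was 0.95 with a rho of 0.95. miR-146a, which dampens NF-κB signalling, had r of 0.90 and rho of 0.89, and miR-129-5p had r of 0.90 and rho of 0.90. These points share arrays, pool and the 3 groups, so the likeness holds the differences between the groups and has no test. miR-675-5p had means of -0.11 ± 0.28 in RS_DMSO, 0.80 ± 0.59 in RS_Rap and -1.52 ± 0.04 in RR_Rap (SD, n = 4). On RS_Rap 3, where miR-291b-5p was low, miR-675-5p stood at -0.0018 against 1.35, 1.11 and 0.76 on the other RS_Rap arrays. miR-146a was not low there, at 0.75 against 0.69, 0.59 and 0.73.

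For miR-294 the probes with the most similar ratios were miR-421, the probe for miR-128a and miR-128b, and miR-204. Their r was 0.79, 0.74 and 0.73, with rho of 0.57, 0.81 and 0.68. They were picked by r, and by rho miR-421 ranked only 21.5 of 216 probes. The ratio of the miR-128a and miR-128b probe, for a neuron-enriched miRNA, was 0.23 ± 0.06 in RS_DMSO, 0.07 ± 0.07 in RS_Rap and 0.32 ± 0.06 in RR_Rap (SD, n = 4). That is the same order of groups as for miR-294, which picking by r over the same arrays favours, so it is no separate observation.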

How the data were processed

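Per the file headers, the spot intensity values are unnormalized output of Agilent Feature Extraction 9.5.3.1 from a scan at 5 µm; the submitters' processing notes name the same software. The deposited series table gives log2 values without stating their scale. Against the raw log2 of Hy3 over Hy5 on the same array, its 417 mouse probes had r of 0.977 to 1.00 with slopes of 0.987 to 1.01, which makes it sample over pool. Array medians of 0.393 to 0.604 show no centring. The summary over spots was not given in the sources used here. Every sample column was used.

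In limma 3.58.1 (R 4.3.3) mean signals were corrected with normexp (offset 50, which shrinks changes of dim probes), ratios normalized by loess within arrays with control spots at weight 0, and unflagged spots averaged. One lmFit and eBayes fit of 12 arrays gave each contrast, with Benjamini-Hochberg adjustment over 417 probes at 0.05. The steps were tested on simulated data. Single values were compared by exact permutation tests (scipy 1.17.1). There was no dye swap. Precision is limited by how few arrays there are.

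The members and lists were chosen with earlier results of these data known. All members are named, those above the negative controls with full statistics, with the 3 probes of highest r beside each. For the miR-302 and miR-17 lists the 2 members with the smallest p are named per comparison. Marker lists are given as counts, with their called members named and without the shared probe of miR-128a and miR-128b. Sequences came from RefSeq tables.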

Additional observations from a re-analysis of the deposited data

Results flagged for a closer look

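Of 45 groups of 4 arrays examined, covering the ratios and both channels of the 5 members in the 3 groups, 2 held an array whose gap to its neighbour exceeded the critical share of 0.829 of the group's range. Chance gives about 1 in 20 groups. The Hy3 signal of miR-291b-5p on RS_Rap 3 was 125, against 173 to 174 on the other RS_Rap arrays. The Hy5 signal of miR-292-3p on RS_Rap 4 was 70.4, against 65.2 to 66.0 on the others, and 1 of its 4 spots on that array was flagged by the scanner software.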

How the results depend on the processing

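The 15 member changes were recomputed under 26 alternatives. Of 381 values 315 kept direction and side of the threshold, 21 lost the call, 9 gained one and 36 changed sign. The count of members called after 24 h, 1 in the text, was 0 with the sample channel alone and with 8 arrays, and 0 to 1 with 1 array left out. For RR_Rap against RS_DMSO, 0 in the text, the count was 1 with an offset of 10, the processed signals, the negative-control filter, array weights, 8 arrays and the replicate block, and 0 to 1 with 1 array left out. In each comparison the negative-control filter is no support for a call of miR-291b-5p, which passed it through RS_Rap alone. For RR_Rap against RS_Rap, 2 in the text, the count was 1 with an offset of 10, without background subtraction, without normalization, with spike-in centring, the processed signals, the sample channel and the value table, and 1 to 2 with 1 array left out. Without loess it stayed 2, with miR-294 lost and miR-292-3p gained (0.12, adjusted p = 0.0433). The number of members above the negative controls was 2 under all 4 ways of setting that line.

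Sign changes for RS_Rap against RS_DMSO were miR-293 0.037 in the value table, 0.012 without background subtraction, 0.0096 without loess, 0.11 without normalization, 0.10 in the sample channel and 0.082 with spike-in centring, miR-295 0.0019 without background subtraction, 0.037 without normalization and 0.012 with spike-in centring, miR-294 0.014 with an offset of 10 and 0.0012 in the sample channel, and miR-292-3p 0.019 there. For RR_Rap against RS_DMSO, without loess, without normalization and with spike-in centring, miR-292-3p was 0.024, 0.15 and 0.14, miR-293 0.057, 0.18 and 0.17, and miR-295 0.089, 0.21 and 0.20. In the sample channel miR-292-3p was 0.043 and miR-293 0.054. miR-294 was -0.15 in the value table and -0.074 without loess. miR-295 was 0.034 in the value table, 0.054 without background subtraction, 0.080 with an offset of 10 and -0.058 to 0.049 with 1 array left out. For RR_Rap against RS_Rap, miR-293 was 0.047 without loess, 0.074 without normalization, 0.086 with spike-in centring and -0.034 to 0.012 with 1 array left out, miR-295 -0.0059 in the sample channel and miR-294 -0.00033 in the value table. The cause was not tested.

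Over all 417 probes, the 14 calls after 24 h, 50% of them higher, were 49 without background subtraction, 124 without loess (85.5% higher), 118 without normalization (99.2%), 128 with spike-in centring (96.1%), 35 with the processed signals, 2 in the sample channel, 111 in the value table (94.6%), 5 with 8 arrays and 4 to 34 with 1 array left out. The 97 calls for RR_Rap against RS_DMSO, 55.7% higher, were 55 in the sample channel (70.9%), and the share was 37% without loess, 72.5% without normalization and 42.1% in the value table. The 121 calls against RS_Rap, 52.1% higher, were 192 without loess (29.7%), 54 in the sample channel and 183 with array weights, and the share was 17.4% without normalization, 19.5% with spike-in centring and 11% in the value table. The median of all probes moved to 0.11 without normalization and -0.13 with the processed signals after 24 h, and to 0.11, 0.097 with spike-in centring and -0.13 for RR_Rap against RS_DMSO. Replicate numbers did not pair the samples: 2 of 12 correlations of same-numbered arrays exceeded 0.1, over a range of -0.11 to 0.15. With the replicate block the counts of members called were 1, 1 and 2, and miR-291b-5p against RS_DMSO had a limma adjusted p of 0.0326. A block for slide or scan day was not run, because each array had its own slide and all shared 1 day.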
